A study of Saccharomyces cerevisiae with 24 samples.

Results

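Baker's yeast makes lysine from 2-oxoglutarate and acetyl-CoA through α-aminoadipate, and 8 genes of this pathway were followed here across mutants of the carboxy-terminal domain (CTD) of RNA polymerase II. They are the homocitrate synthases *LYS20* and *LYS21*, homoaconitase *LYS4*, homoisocitrate dehydrogenase *LYS12*, α-aminoadipate reductase *LYS2*, the saccharopine dehydrogenases *LYS9* and *LYS1*, and the transcriptional activator *LYS14*. The genes were taken by their symbol in the array annotation, and each of the 8 had 1 probe among the 6388 gene probes, or 5315 distinct gene names, of the array. *LYS2* is kept apart from the other 7, since strains of the study differ in this gene.

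The pathway starts with homocitrate synthase, which lysine inhibits, and runs through several mitochondrial steps to α-aminoadipate. Lys2 then reduces α-aminoadipate to its semialdehyde, and Lys9 and Lys1 carry the carbon on to lysine through saccharopine. The semialdehyde formed by Lys2 acts with Lys14 to activate *LYS* genes, so that the pathway can raise its own expression when lysine is scarce. Gcn4, the general activator of amino acid synthesis, also acts on several of these genes. A cell that lacks *LYS2* can neither make lysine nor form the semialdehyde.

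The arrays compared RNA of haploid cells with a common reference RNA made from wild type. Every sample is labelled as strain BY4742, a MATα background that by its standard description lacks *LYS2* and needs lysine in the medium. Cells grew to mid-log phase in synthetic complete medium with glucose at 30°C. Wild type had 8 arrays. Each mutant had 2 arrays, from separate cultures by the design text. *RPB1-CTDWT* carries the full-length CTD of 26 repeats with the marker of the truncations. The truncations are named by the heptapeptide repeats that remain, with *rpb1-CTD11* as the shortest, *rpb1-CTD12* and *rpb1-CTD13* next and *rpb1-CTD20* as the mildest. *rpb1-CTD12 cdk8Δ* and *rpb1-CTD11 cdk8Δ* also lack the Mediator kinase Cdk8, and no array measured *cdk8Δ* alone. A further wild type with 2 arrays is labelled 330 rpm and is the control that the study set against the double mutants, although the growth protocol gives 1 slower shaking speed for all samples. In these pairs, by the sample labels, the array lettered a had the strain's RNA in Cy3 and that lettered b in Cy5. The design text states the opposite dye order, and the labels were used here. The study's strain list holds 2 strains for each single CTD mutant. One carries an intact *LYS2*, a deletion of *MET15* (here *MET17*) and reporters in place of *CAN1* and *LYP1*. The entry for the other names none of these changes, and neither do the entries of the double mutants. The labels do not say which strain was hybridised. The sources do not say whether wild type arrays that share a label k1, k2 or k3 came from 1 culture, and the p values treat all arrays as independent.

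Checks of the strains bear on every comparison below. *SSN3*, the gene of Cdk8, was below the level of empty spots in the strain's channel of all 4 double mutant arrays and above it on the other 20, while the reference channel of those 4 arrays was above it, which is the dye order of the labels. *RPO21*, which encodes the CTD-bearing subunit, had a log2 change from wild type of -1.32, -1.34, -1.57 and -0.34 with 11, 12, 13 and 20 repeats and of -0.97 in *RPB1-CTDWT*, all past the adjusted p but that with 20 repeats. *MET17*, whose product makes homocysteine, stood at -4.78 with 12 repeats, -4.59 with 13 and -4.99 with 20. It was 0.99 higher with 11 repeats and had 0.13 in *RPB1-CTDWT* (adjusted p = 0.68) and 0.22 and 0.00 in the double mutants with 11 and 12 repeats relative to wild type 330 rpm. The permease genes *CAN1* and *LYP1* were low in no strain, with the lowest log2 change from its control at -0.07 among the mutants. The genes *STE3*, *SAG1*, *MF(ALPHA)1* and *MF(ALPHA)2*, all 4 of the list for MATα cells, were above empty spots on all 24 arrays, with a summed signal of 27814 to 88463 in wild type, 11084 to 27874 in *rpb1-CTD11* and 13269 to 62345 in the other groups. The 6 genes that mark MATa cells were also above empty spots, each on 22 to 24 of the 24 arrays. They summed to only 519 to 1322 on any array and were at most 4.42 times the level of empty spots. So 3 truncations share a loss of *MET17* that *rpb1-CTD11*, *RPB1-CTDWT* and both double mutants lack, and comparisons between these 2 sets also compare strains of unlike markers. *LYS2*, given next, splits the groups in another way. Every group with a truncation lay far above both wild types and *RPB1-CTDWT*, so comparisons of a truncation with a control also compare strains unlike in *LYS2*. The mitochondrial gene *OLI1*, treated below, was far under wild type in *rpb1-CTD11* and *rpb1-CTD12*, but not in *rpb1-CTD13*, *rpb1-CTD20* or the double mutants.

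*LYS2* encodes the reductase that forms the semialdehyde. It was high in every truncation mutant with or without *CDK8* and did not pass the test in *RPB1-CTDWT* or wild type 330 rpm. In wild type its log2 ratio to the reference was -0.04 at the lowest, 0.05 at the median and 0.12 at the highest array. In *RPB1-CTDWT* it was 0.07 and 0.09, and in wild type 330 rpm -0.10 and -0.08, for the a and the b array. The truncation mutants lay far above this, with 2.74 and 3.50 in *rpb1-CTD20*, 2.73 and 2.68 in *rpb1-CTD13*, 2.87 and 2.66 in *rpb1-CTD12* and 2.79 and 3.13 in *rpb1-CTD11*. The double mutants had 2.57 and 2.47 with 12 repeats and 2.70 and 2.38 with 11. No array of these 6 groups overlapped any array of the other 3, and the pair of *rpb1-CTD20* differed from each other more than any other pair.

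The log2 change of *LYS2* relative to wild type was 3.07 ± 0.12 (SE, 2 arrays against 8) with 20 repeats, 2.65 ± 0.12 with 13, 2.71 ± 0.12 with 12 and 2.91 ± 0.12 with 11, with adjusted p of 2.8e-12, 6.4e-11, 1.9e-11 and 9.6e-13 by limma. This was the highest change among all 6388 probes in each of the 4 truncation mutants. Relative to wild type 330 rpm it was 2.63 ± 0.16 in *rpb1-CTD11 cdk8Δ* and 2.61 ± 0.16 in *rpb1-CTD12 cdk8Δ* (adjusted p of 4.3e-10 and 8.5e-10). *RPB1-CTDWT* had 0.03 ± 0.12 (adjusted p = 0.97). None of the steps between neighbouring lengths passed the test, with 0.19 ± 0.16 (11 against 12, adjusted p = 0.47), 0.06 ± 0.16 (12 against 13, adjusted p = 0.79) and -0.42 ± 0.16 (13 against 20, adjusted p = 0.18). This last step lay in the b arrays, at 3.50 with 20 and 2.68 with 13 repeats, while the a arrays had 2.74 and 2.73. Without the a array of *rpb1-CTD20* the step was -0.81. With only these groups in the fit, 2 arrays each, it passed (adjusted p = 7.8e-09). With so few arrays that p value rests largely on the spread of other probes and does not measure the gap between the *rpb1-CTD20* arrays.

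The signals behind these ratios show where *LYS2* was measured. The strain's channel read 179 to 504 scanner units in wild type, 172 and 405 in *RPB1-CTDWT*, and 775 to 3517 in the 6 groups with a truncation. The reference channel, which holds wild type RNA, read 107 to 457 over all 24 arrays. These low signals still exceeded percentile 99 of the empty spots of their own channel on each array, by a factor of 2.75 at the least in the strain's channel. The source of the signal in wild type was not tested. The truncation and the state of the *LYS2* locus cannot be told apart in these groups.

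**Figure D1:**
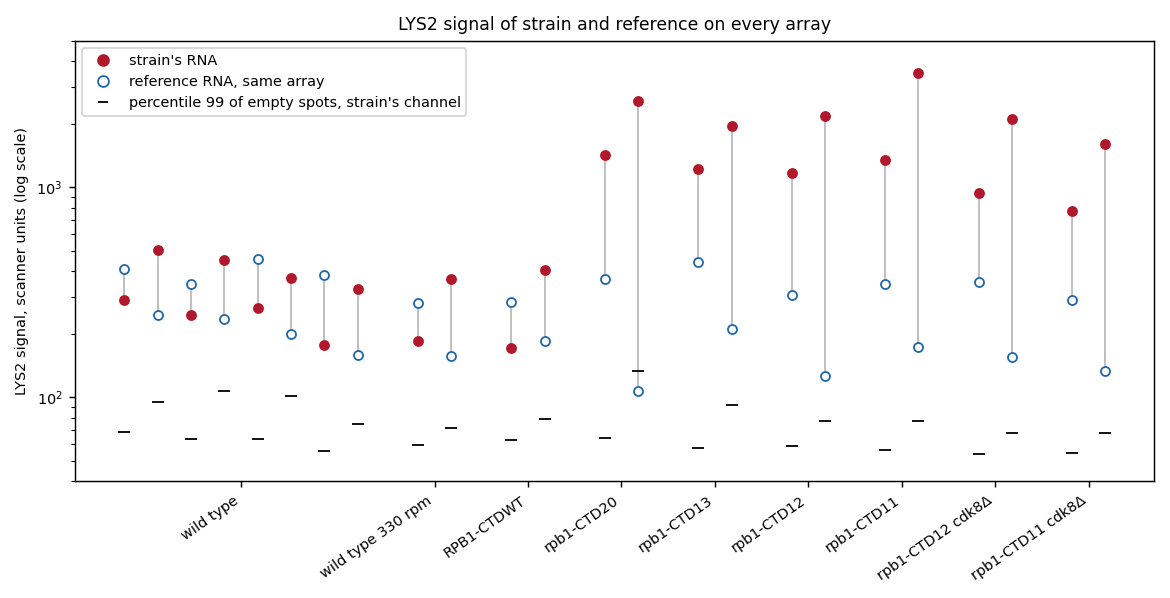
*LYS2* signal in scanner units (log scale) on every array, with the strain's RNA as filled points, the reference RNA of the same array as open points and percentile 99 of the empty spots in the strain's channel as bars. The strain's signal was 179 to 504 in wild type and 775 to 3517 in the 6 groups with a truncation, while the reference stayed at 107 to 457.

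Among the other 7 genes, the number past an adjusted p of 0.01 was 4 with 11 and with 12 repeats, 3 with 13, 1 with 20 and 0 in *RPB1-CTDWT*, all higher than wild type. Among all probes 24.3% were higher and 24.9% lower with 11 repeats, 18.6% and 17.4% with 12, 1.52% and 4.34% with 13, and 0.172% and 0.204% with 20, while 0.141% passed in either direction in *RPB1-CTDWT*. The median log2 change of the 7 genes was 0.44, 0.37, 0.15, 0.18 and 0.01 in the same order, where the median over all probes was 0.00 or 0.01. *LYS20* and *LYS9* passed with 11, 12 and 13 repeats, *LYS9* also with 20. *LYS1* passed with 11, 12 and 13, and *LYS12* with 11 and 12. In the setting called the spiked-in shift, each array was moved by the median of its spiked-in control spots, after the same loess on gene spots. The median of all probes then moved to -0.42 with 13 repeats and to -0.21 with 20. *LYS20*, *LYS9* and *LYS1* with 13 repeats changed sign, to -0.05, -0.09 and -0.08. Relative to that median they had 0.37, 0.33 and 0.34. These repeat the main fit by construction, since the shift adds a constant to each array. *LYS9* with 20 repeats had 0.18 with the spiked-in shift (adjusted p = 0.25). Each of these truncation mutants was also high in *LYS2*, and its part in the changes of the 7 genes was not tested.

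**Figure D2:**
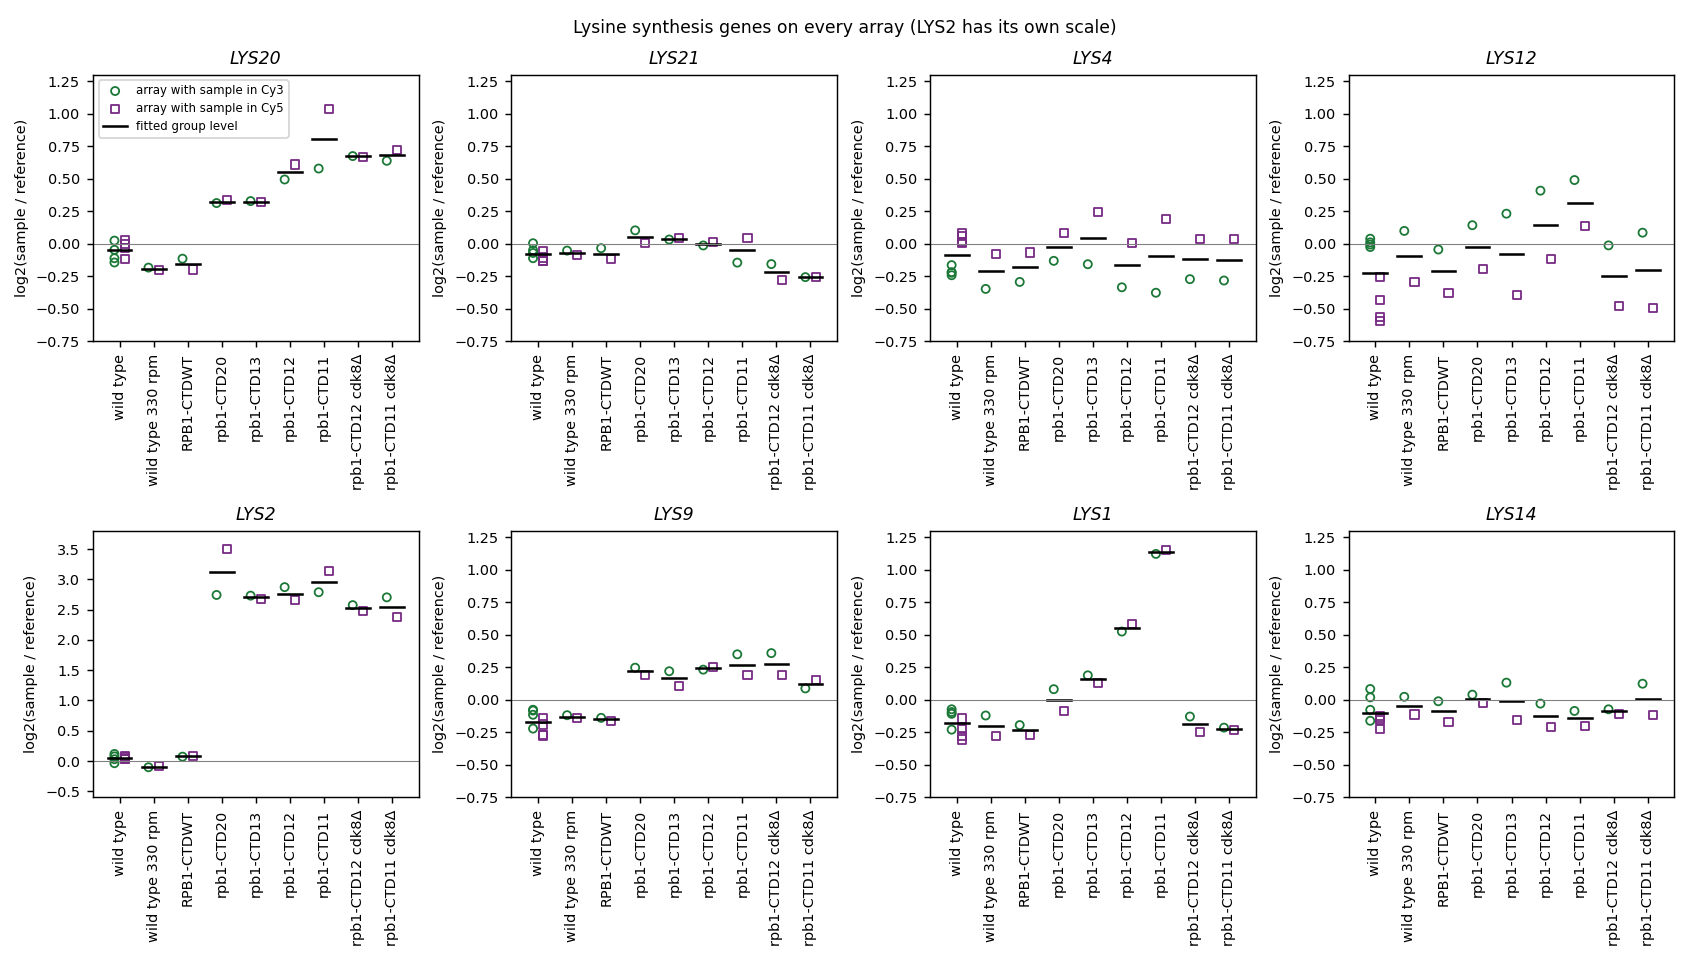
Log2 ratio of strain to reference for the 8 genes on all 24 arrays, by group, with circles for arrays that carry the strain's RNA in Cy3, squares for Cy5 and bars for the fitted level of the group. *LYS1* climbs from wild type to *rpb1-CTD11* and is back in the wild type range in both double mutants, *LYS20*, *LYS9* and *LYS2* stay high there, and *LYS12* and *LYS4* show a steady gap between the dyes. With the spiked-in shift *LYS20*, *LYS9* and *LYS1* have -0.05, -0.09 and -0.08 with 13 repeats, where the median of all probes is -0.42.

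*LYS20* encodes one of the homocitrate synthase isozymes, the entry step. Its wild type arrays ran from -0.15 through a median of -0.04 to 0.03. It measured 0.31 and 0.33 in *rpb1-CTD20*, 0.33 and 0.32 in *rpb1-CTD13*, 0.49 and 0.61 in *rpb1-CTD12* and 0.58 and 1.04 in *rpb1-CTD11* on the a and b arrays. *RPB1-CTDWT* had -0.12 and -0.20. All truncation arrays lay above all 8 wild type arrays, and the arrays of *rpb1-CTD11* differed from each other more than the other pairs. The log2 change was 0.86 ± 0.07 (adjusted p = 7.7e-09) with 11 repeats, a 1.81-fold rise, 0.60 ± 0.07 (adjusted p = 1.9e-06) with 12 and 0.37 ± 0.07 with 13 (adjusted p = 0.0016), a call lost when either array of *rpb1-CTD13* was left out (adjusted p of 0.052 without a and 0.023 without b). With 20 repeats it was also 0.37 ± 0.07 and narrowly missed the threshold (adjusted p = 0.012). It passed with 20 repeats under 4 of the alternatives, among them print-tip loess and the deposited log2 ratios (adjusted p of 0.0033 and 0.0031).

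*LYS21*, the other homocitrate synthase, stayed close to wild type in the same strains. Its wild type arrays ran from -0.14 through -0.09 to 0.00, and the 8 truncation arrays from -0.15 to 0.10. The changes were 0.03 ± 0.05, 0.08 ± 0.05, 0.12 ± 0.05 and 0.14 ± 0.05 with 11, 12, 13 and 20 repeats, with adjusted p of 0.55, 0.15, 0.10 and 0.17. Both arrays with 13 and with 20 repeats lay above the wild type arrays of their dye. The 95% interval with 11 repeats was -0.06 to 0.13, apart from that of *LYS20* at 0.71 to 1.01. The isozymes are highly similar in sequence, and how far each probe also reads the other's transcript is not analysed here.

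*LYS4*, the homoaconitase, passed in no comparison of a truncation with wild type. Its wild type arrays ran from -0.24 to -0.17 in Cy3 and from 0.01 to 0.08 in Cy5, and the truncation arrays from -0.38 to 0.25. Within a dye, both arrays with 13 and with 20 repeats lay above wild type and both with 12 below. With 11 repeats the a array lay below and the b array above. Changes were -0.01 ± 0.05, -0.08 ± 0.05, 0.13 ± 0.05 and 0.06 ± 0.05 with 11, 12, 13 and 20 repeats. *LYS14*, the activator that responds to the semialdehyde, had -0.05 ± 0.05, -0.02 ± 0.05, 0.09 ± 0.05 and 0.10 ± 0.05, with adjusted p of 0.32 or more. Its wild type arrays, from -0.23 to 0.08 over both dyes, held all 8 truncation arrays but 1, the a array of *rpb1-CTD13* at 0.13. Compared within a dye, the b array of *rpb1-CTD20* also lay above wild type.

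*LYS12* encodes homoisocitrate dehydrogenase, the oxidative step in mitochondria. Its probe had a dye term of -0.46, the largest in size of the 8 genes, so arrays are compared within a dye. In Cy3 the wild type arrays held -0.03 to 0.04, and in Cy5 -0.60 to -0.26. The a arrays with 11, 12, 13 and 20 repeats had 0.49, 0.41, 0.23 and 0.14, all above wild type in Cy3. The b arrays had 0.13, -0.12, -0.39 and -0.20, of which that of *rpb1-CTD13* lay within wild type in Cy5. The change was 0.54 ± 0.07 (adjusted p = 1.8e-06) with 11 repeats and 0.37 ± 0.07 (adjusted p = 0.00019) with 12, and it did not pass with 13 (0.15 ± 0.07, adjusted p = 0.17) or 20 (0.20 ± 0.07, adjusted p = 0.17). Without the dye term both calls were lost, at an adjusted p of 0.070 and 0.26, and the second was also lost without the a array of *rpb1-CTD12* (adjusted p = 0.011).

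*LYS9* encodes the saccharopine dehydrogenase that forms saccharopine. It was higher by a like amount at every length. Wild type arrays ran from -0.27 through -0.17 to -0.08. The truncation mutants had 0.25 and 0.19 with 20 repeats, 0.22 and 0.11 with 13, 0.23 and 0.25 with 12 and 0.35 and 0.19 with 11, all above wild type. *RPB1-CTDWT* lay within wild type at -0.14 and -0.16. The log2 change was 0.44 ± 0.05, 0.41 ± 0.05, 0.34 ± 0.05 and 0.39 ± 0.05 with 11, 12, 13 and 20 repeats (adjusted p of 2.9e-07, 1.6e-06, 0.00011 and 8.9e-05), rises of 1.26-fold to 1.36-fold that all stayed under the threshold fold of 1.7. Without the b array of *rpb1-CTD20* its adjusted p there was 0.012. Of the 7 genes, it alone also passed between *rpb1-CTD20* and *RPB1-CTDWT* (0.37 ± 0.06, adjusted p = 0.0097), where 0.0939% of all probes passed in either direction. That call was lost under 10 of the alternatives, with an adjusted p of up to 0.67, and *LYS20* had 0.48 ± 0.09 (adjusted p = 0.033), which passed with print-tip loess (0.0073) and with the deposited log2 ratios (0.0060).

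*LYS1* encodes the dehydrogenase that releases lysine from saccharopine, and its level was higher at each shorter CTD length. The strains of these lengths also differed in *MET17* and *OLI1*, and the part of either was not tested. Wild type arrays ran from -0.30 through -0.18 to -0.07. The a and b arrays had 0.08 and -0.09 in *rpb1-CTD20*, 0.19 and 0.13 in *rpb1-CTD13*, 0.53 and 0.59 in *rpb1-CTD12* and 1.12 and 1.15 in *rpb1-CTD11*. The arrays with 13, 12 and 11 repeats overlapped neither wild type nor each other, and those with 20 lay above the wild type arrays of their own dye. The change from wild type was 1.32 ± 0.05 with 11 repeats (2.49-fold, adjusted p = 1.8e-13), 0.74 ± 0.05 with 12 (adjusted p = 2.1e-09), 0.34 ± 0.05 with 13 (adjusted p = 0.00014) and 0.18 ± 0.05 with 20 (adjusted p = 0.093). In *rpb1-CTD11* its change ranked 10 from the top among 5326 named probes. Without the b array of *rpb1-CTD13* its adjusted p there was 0.011.

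**Figure D3:**
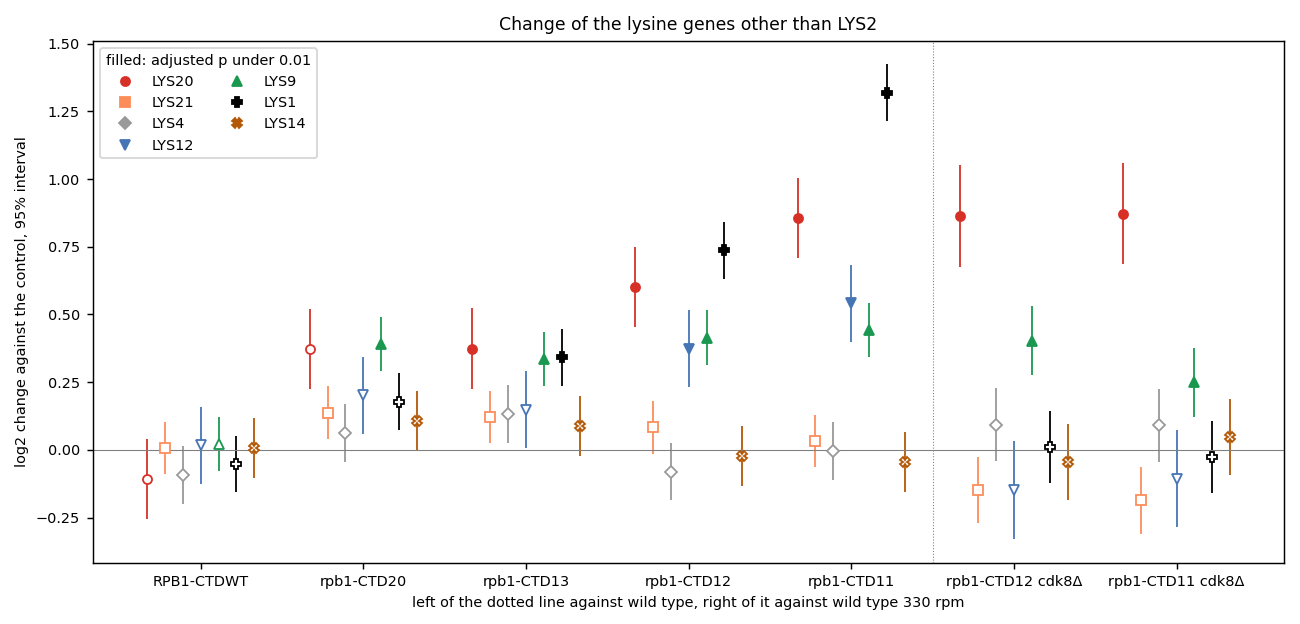
Log2 change of the 7 genes other than *LYS2* relative to wild type (left of the dotted line) or wild type 330 rpm (right), with 95% intervals from limma and filled symbols for an adjusted p under 0.01. *LYS1* goes from 0.18 with 20 repeats to 1.32 with 11, and *LYS9* lies between 0.34 and 0.44 at all 4 lengths. In the double mutants with 11 and 12 repeats *LYS20* has 0.87 and 0.86 while *LYS1* has -0.03 and 0.01. Relative to the wild type on the left, *LYS20* has 0.73 and 0.72 there. With the spiked-in shift *LYS20*, *LYS9* and *LYS1* change sign with 13 repeats (-0.05, -0.09 and -0.08), where the median of all probes is -0.42.

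The steps between neighbouring lengths were tested directly. From 12 to 11 repeats *LYS1* rose by a further 0.58 ± 0.06 (adjusted p = 7.5e-06), the only call among the 7 genes where 7.76% of all probes passed in either direction. That call was lost with the spiked-in shift (0.58, adjusted p = 0.028) and with only these groups in the fit (adjusted p = 0.063). From 13 to 12 repeats *LYS1* rose by 0.40 ± 0.06 (adjusted p = 0.00012), again the only call, where 23.8% passed. In this step *LYS4* also passed with print-tip loess (-0.18, adjusted p = 0.0086), and *LYS4* and *LYS12* with the deposited log2 ratios (-0.19 and 0.30, adjusted p of 0.0053 and 0.00045). *LYS20*, *LYS12* and *LYS9* passed in it with the spiked-in shift (0.67, 0.66 and 0.52), where the median of all probes was 0.44. Between 13 and 20 repeats none of the 7 passed (*LYS1* at 0.16 ± 0.06, adjusted p = 0.19), where 1.55% did. *LYS20* had 0.26 ± 0.09 from 12 to 11 repeats (adjusted p = 0.060) and 0.23 ± 0.09 from 13 to 12 (adjusted p = 0.052), and *LYS9* had 0.03 ± 0.06 and 0.08 ± 0.06. Ordered by level, *LYS1* thus stood highest with 11, then 12, then 13 repeats, with 20 repeats and the other groups below. *MET17* differed by 5.76 between *rpb1-CTD11* and *rpb1-CTD12*, and its part in the difference of *LYS1* was not tested. *OLI1*, treated below, was far under wild type with 12 but not with 13 repeats, and its part in that step was not tested either. Without the a array of *rpb1-CTD11*, *LYS20* also passed between 11 and 12 repeats (0.47, adjusted p = 0.00025).

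The double mutants separated the genes that rose. Relative to wild type 330 rpm, 2 of the 7, *LYS20* and *LYS9*, passed in both *rpb1-CTD11 cdk8Δ* and *rpb1-CTD12 cdk8Δ*, both higher. Among all probes 15.2% were higher and 13.2% lower with 11 repeats, and 15.6% and 11.2% with 12. *LYS20* had 0.64 and 0.72 on the arrays of *rpb1-CTD11 cdk8Δ* and 0.67 and 0.67 on those of *rpb1-CTD12 cdk8Δ*, against -0.18 and -0.20 in wild type 330 rpm. Its change was 0.87 ± 0.09 (adjusted p = 3.2e-07) and 0.86 ± 0.09 (adjusted p = 5e-07), past both thresholds. *LYS9* had 0.09 and 0.15 with 11 repeats and 0.36 and 0.19 with 12, against -0.12 and -0.14, with changes of 0.25 ± 0.06 (adjusted p = 0.0029) and 0.40 ± 0.06 (adjusted p = 3.7e-05). The call of *LYS9* with 11 repeats was lost without either array of wild type 330 rpm (adjusted p of 0.036 and 0.011) and without the b array of the double mutant (0.18, adjusted p = 0.074). With the other wild type as the control both genes passed the adjusted p in both double mutants. *LYS20* then had 0.73 with 11 and 0.72 with 12 repeats, under the fold threshold. With the spiked-in shift *LYS9* passed in neither (adjusted p of 0.72 and 0.25).

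*LYS1* and *LYS12* had no such rise. *LYS1* measured -0.21 and -0.23 in *rpb1-CTD11 cdk8Δ* and -0.13 and -0.25 in *rpb1-CTD12 cdk8Δ*, within the range of wild type and close to the -0.12 and -0.27 of wild type 330 rpm. Its change was -0.03 ± 0.06 with 11 repeats (95% interval -0.16 to 0.11) and 0.01 ± 0.06 with 12 (-0.12 to 0.14). *LYS12* had -0.11 ± 0.09 (-0.29 to 0.07) and -0.15 ± 0.09 (-0.33 to 0.03). *LYS21* was below its wild type range on all 4 double mutant arrays, between -0.28 and -0.16, with changes of -0.19 ± 0.06 (adjusted p = 0.016) and -0.15 ± 0.06 (adjusted p = 0.051). With print-tip loess or the deposited log2 ratios both of these passed. *LYS4* had 0.09 ± 0.06 in both double mutants, and *LYS14* 0.05 ± 0.07 and -0.04 ± 0.07.

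Each double mutant was then compared with its own truncation, and this difference is called here the response to loss of *CDK8*. The strains compared also differed in *MET17* and *OLI1*, and the study paired the double mutants with another wild type. Of the 7 genes, 3 fell at 11 and the same 3 at 12 repeats, namely *LYS1*, *LYS12* and *LYS21*, and none rose. Among all probes 18.9% fell and 19.7% rose at 11 repeats, and 14.9% and 17.5% at 12. *LYS1* fell by 1.36 ± 0.06 with 11 repeats (2.57-fold, adjusted p = 4.7e-12) and by 0.74 ± 0.06 with 12 (adjusted p = 3.8e-08). The change of *LYS12* was -0.52 ± 0.09 (adjusted p = 6.2e-05) and -0.39 ± 0.09 (adjusted p = 0.0012), and that of *LYS21* -0.21 ± 0.06 (adjusted p = 0.0066) and -0.22 ± 0.06 (adjusted p = 0.0053). The fall of *LYS1* passed under every alternative run at either length. *LYS20* had -0.13 ± 0.09 (95% interval -0.31 to 0.06) and 0.12 ± 0.09 (-0.07 to 0.31), but without the a array of *rpb1-CTD11* the first was -0.34 and passed (adjusted p = 0.00067). *LYS9* had -0.15 ± 0.06 and 0.03 ± 0.06, and *LYS2* -0.42 ± 0.16 and -0.24 ± 0.16, with adjusted p of 0.046, 0.71, 0.035 and 0.23. The value of *LYS9* at 11 repeats passed with print-tip loess (-0.19, adjusted p = 0.0020) and with the deposited log2 ratios (-0.20, adjusted p = 0.0018). The calls of *LYS12* at 11 and 12 repeats were lost without the dye term (adjusted p of 0.21 and 0.41) and with the spiked-in shift (0.038 and 0.26). That at 11 was also lost with only these groups in the fit (0.017). With 12 repeats the calls of *LYS12* and *LYS21* were both lost without the a array of *rpb1-CTD12* or the b array of the double mutant, and that of *LYS21* was lost under 7 alternatives at each length, with -0.087 (adjusted p = 0.22) at 11 repeats without the b array of *rpb1-CTD11*. Between the single and the double mutant *MET17* differed by 4.39 with 12 and by -1.16 with 11 repeats, and its part was not tested. *OLI1*, treated below, was far under wild type in both truncations but not in the double mutants, and its part was not tested either.

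**Figure D4:**
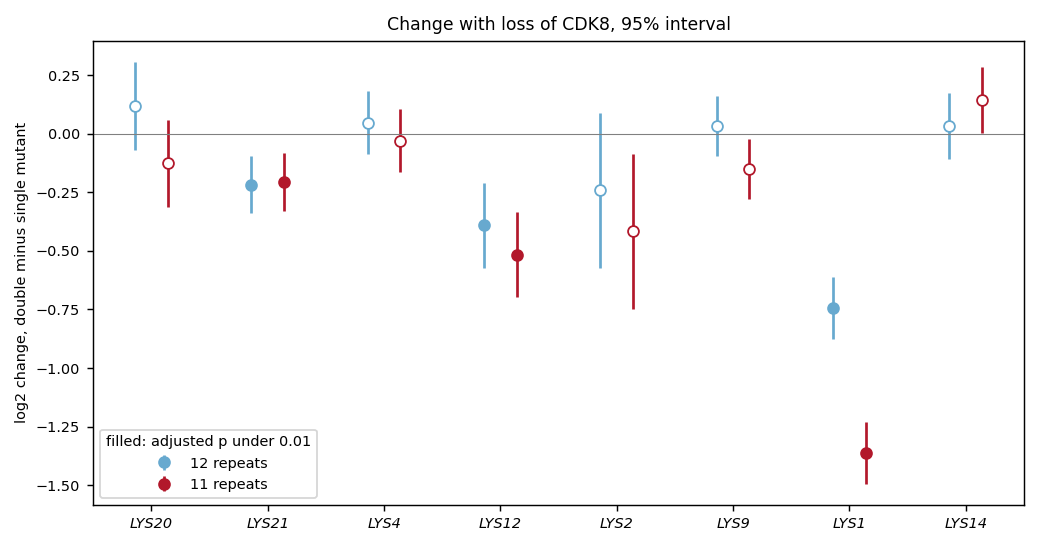
Log2 change of the 8 genes between each double mutant and its truncation, with 95% intervals from limma, blue for 12 and red for 11 repeats and filled points for an adjusted p under 0.01. *LYS1* has -0.74 and -1.36, *LYS12* -0.39 and -0.52 and *LYS21* -0.22 and -0.21, while the intervals of *LYS20*, at 0.12 and -0.13, hold 0. Without the a array of *rpb1-CTD11* the latter is -0.34. The strains compared also differ in *MET17* and *OLI1*.

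The response to loss of *CDK8* was larger with 11 than with 12 repeats for *LYS1*, by -0.62 ± 0.09 (95% interval -0.81 to -0.43, adjusted p = 0.00044). *LYS1* was the only one of the 7 genes to pass this test of the difference, where 2.29% of all probes passed in either direction. The double mutants themselves had nearly equal levels of *LYS1*, with a difference of -0.04 ± 0.06 (adjusted p = 0.84), and none of the 7 genes passed between them, where 0.751% of probes did. The single mutants with 11 and 12 repeats differed by 0.58 ± 0.06 in *LYS1*. They also differed by 5.76 in *MET17*, whose part was not tested. *LYS12* had -0.13 ± 0.12 and *LYS20* -0.25 ± 0.13 in the test of the difference. The call of *LYS1* was lost under median centring (adjusted p = 0.017), without the dye term (0.014), with the spiked-in shift (0.57) and with only these groups in the fit (0.058). Without the a array of *rpb1-CTD11*, *LYS20* passed the test at -0.46 (adjusted p = 0.0055).

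Wild type at 330 rpm, the control of the double mutants, differed little from wild type in these genes. None of the 7 passed, where 4.46% of all probes did in either direction, and their changes lay between -0.14 for *LYS20* and 0.13 for *LYS12*. *LYS2* had -0.14 ± 0.12.

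Other genes of the pathway and of its transport and control were read from a list of 15, of which 13 have a named probe. With 11 and with 12 repeats 5 of them were higher and 2 lower, with 13 repeats 1 was lower, and with 20 repeats and in *RPB1-CTDWT* none passed. Of all probes, 24.3% were higher and 24.9% lower with 11 repeats, and 18.6% and 17.4% with 12. *ACO1*, the mitochondrial aconitase, moved most. It had -0.12 to 0.28 on the wild type arrays, 1.00 and 1.15 in *rpb1-CTD12* and 1.21 and 1.38 in *rpb1-CTD11*, against 0.15 and 0.11 in *rpb1-CTD13*. Its rise was 1.21 ± 0.08 with 11 and 1.00 ± 0.08 with 12 repeats (adjusted p of 2.6e-10 and 1.3e-08), and it had 0.05 ± 0.08 with 13. On loss of *CDK8* it fell, by 1.35 ± 0.10 at 11 and by 1.04 ± 0.10 at 12 repeats.

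*OLI1*, a subunit of the ATP synthase encoded in the mitochondrial genome and chosen after its values were seen, was at -5.42 with 11 and -5.43 with 12 repeats relative to wild type, at -0.15 with 13 and 0.03 with 20. In the double mutants it was at 0.98 and 0.43 relative to wild type 330 rpm. *ACO1* and *LYS12* passed relative to wild type with 11 and 12 repeats, and *LYS1* with 11, 12 and 13. The part of *OLI1* in these results was not tested.

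The remaining genes of the list changed less. *ARO8*, an aminotransferase that also acts on α-aminoadipate, was 0.30 higher in *rpb1-CTD11* and had -0.39 and -0.38 on loss of *CDK8* at 11 and 12 repeats, both past the test. *ODC1*, a mitochondrial carrier of 2-oxoadipate, had -0.39, -0.35 and -0.28 with 11, 12 and 13 repeats and rose by 0.52 and 0.49 on loss of *CDK8*. *LYS5*, whose product activates Lys2, and *MKS1*, a regulator once described as *LYS80*, passed in no comparison with a control. *GCN4* mRNA had 0.05 and 0.02 with 11 and 12 repeats and -0.31 and -0.42 on loss of *CDK8*, both of these past the test, although Gcn4 is regulated mainly at translation, which these arrays do not read. On loss of *CDK8* 7 of the 13 genes fell and 3 rose at either length, where 18.9% of all probes fell and 19.7% rose at 11 repeats, and 14.9% and 17.5% at 12.

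Amino acid genes of other pathways that Gcn4 activates gave a comparison for the size of these changes. Of 30 listed, 28 have a named probe. In *rpb1-CTD11* 19 were higher and 2 lower (24.3% and 24.9% of all probes), with a median of 0.32, and in *rpb1-CTD12* 14 and 2 (18.6% and 17.4%), with a median of 0.23. With 13 repeats 4 were higher and with 20 none (1.52% and 0.172% of all probes), with medians of 0.05 and 0.01. In the double mutants with 11 and 12 repeats 12 were lower in each, 3 and 4 were higher, and the medians were -0.18 and -0.20, where 13.2% and 11.2% of all probes were lower and 15.2% and 15.6% higher. At 11 repeats 22 of them fell and 3 rose on loss of *CDK8*, where 18.9% of all probes fell and 19.7% rose. At 12 repeats 20 fell and 2 rose, where 14.9% of all probes fell and 17.5% rose. *HIS4*, of histidine synthesis, rose by 1.21 and *ARG1*, of arginine synthesis, by 1.44 in *rpb1-CTD11*. In the double mutants *LYS20* and *LYS9* thus lay above the control where the median of this list lay below it, and that difference was not tested.

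**Figure D5:**
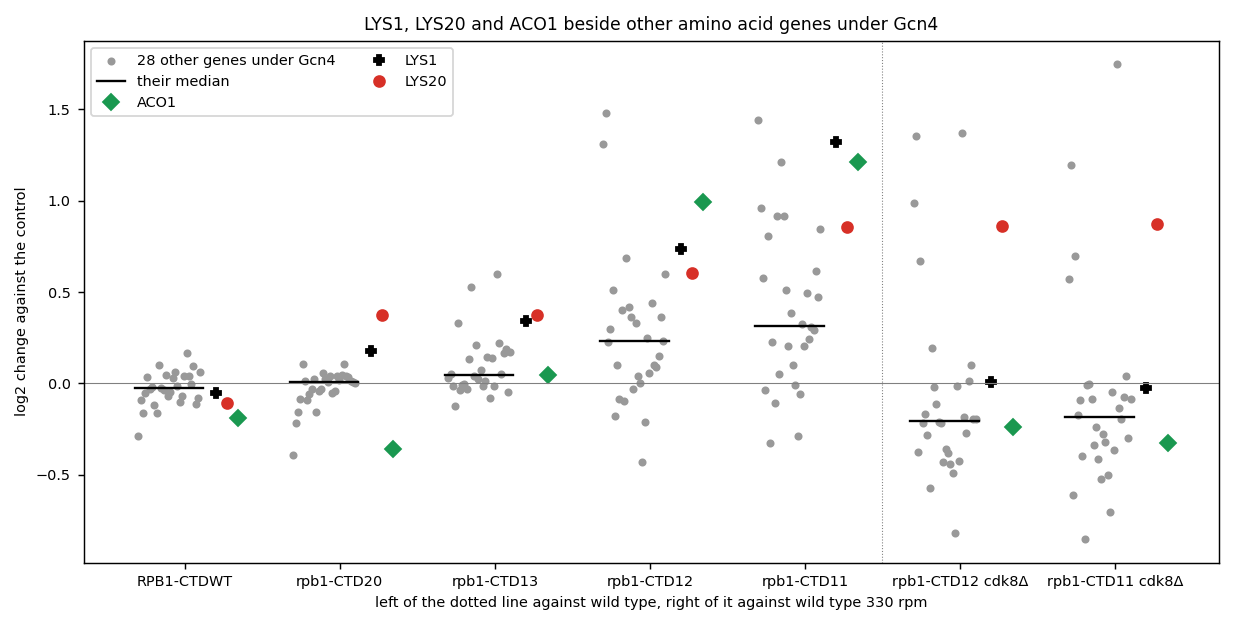
Log2 change relative to wild type (left of the dotted line) or wild type 330 rpm (right) of 28 amino acid genes of other pathways that Gcn4 activates (grey, with their median as a bar) and of *LYS1*, *LYS20* and *ACO1*. The median goes from 0.32 in *rpb1-CTD11* to -0.18 in *rpb1-CTD11 cdk8Δ*, *LYS1* goes from 1.32 to -0.03 and *LYS20* is at 0.86 and 0.87. With the spiked-in shift *LYS20* and *LYS1* change sign with 13 repeats (-0.05 and -0.08), where the median of all probes is -0.42.

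Likeness of the 8 genes over the fitted levels of the 9 groups is given here as a description, since all groups share the reference and the wild type arrays weigh on every change. *LYS1* and *LYS12* had a Pearson r of 0.96, *LYS2* and *LYS9* of 0.96, *LYS20* and *LYS9* of 0.90 and *LYS20* and *LYS2* of 0.88. *LYS1* and *LYS2* had 0.53, and *LYS20* and *LYS21* -0.26. *LYS4*, *LYS14* and *LYS21* reached at most 0.54, 0.42 and 0.50 with any other of the 8. Among the 1552 other named probes that ranged over at least 0.5 on the log2 scale, those most like *LYS1* were *RNH70*, an RNA exonuclease, *DSK2*, a ubiquitin receptor of the proteasome, *SGT2*, a co-chaperone, *UBC13*, a ubiquitin-conjugating enzyme, and *PGA3*, with r of 0.99, 0.99, 0.99, 0.99 and 0.98. *DSK2*, for example, was above wild type by 1.25 with 11 and 0.81 with 12 repeats, and by 0.05 in *rpb1-CTD11 cdk8Δ*. Most like *LYS2* was *LYS20*, with 0.88, followed by *CPR6* and *AHA1*, co-chaperones of Hsp90, *MUP3*, a methionine permease, and *PUP2*, a subunit of the proteasome, with r of 0.81, 0.80, 0.76 and 0.75. *LYS9* itself ranged over less than 0.5 and was not among these candidates.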

How the data were processed

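Expression was measured on 24 dual-channel arrays in 9 groups. The deposited scanner files hold raw spot intensity and local background in each channel, with no normalization by the authors. The deposited series table holds log2 ratios made by the authors with print-tip loess and a correction of dye bias. Its columns correlated at 0.44 to 0.92 with the scanner ratio of sample to reference, with medians of -0.00 to 0.03, and it served as an alternative. The deposited table of the authors' comparisons (log2 fold changes and p-values) was not used. The authors used limma 2.12.0. No genome build is given in the sources used here, and probe, promoter and protein sequences were not analysed here.

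Intensities were corrected by normexp (offset 50) and by global loess with a span of 0.3, in which control spots had weight 0. Each probe's value is the mean of its 2 spots. A single limma 3.58.1 model (R 4.3.3) held all arrays, with a coefficient for each of the 9 groups, a term for the dye, Benjamini-Hochberg adjustment over 6388 probes and two-sided tests. Calls used an adjusted p of 0.01, and the fold threshold was 1.7. Of the probes, 5326 have a gene name and 1062 none. Empty spots set the background at percentile 99, and 86.1% to 98.6% of gene probes passed it in the strain's channel, with median signals of 314 to 1185 over a background of 42 to 71. Precision is limited by having 2 arrays per mutant.

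In groups of 2 the letters a and b are also the dye orientations, and the difference b minus a correlated at 0.62 to 0.93 between groups, so that the dye term also acts as a replicate block. Wild type arrays correlated at 0.58 to 0.93 within a dye orientation and at -0.07 to 0.28 between orientations before the dye term. The pipeline was tested on simulated data. All 8 genes are named. The genes and lists were chosen with earlier results of these data known, and the comparisons of neighbouring lengths and between the double mutants were added after the data were seen.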

Additional observations from a re-analysis of the deposited data

Results flagged for a closer look

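The fall of *LYS1* on loss of *CDK8* differed between the truncations, with a change 0.62 larger in size at 11 than at 12 repeats (-0.62 on the log2 scale, adjusted p = 0.00044 by limma). It was flagged because the difference itself passed the test. The limma call was lost under median centring (adjusted p = 0.017) and without the dye term (0.014). It was also lost with the spiked-in shift (0.57) and with only the groups compared in the fit (0.058). The single mutants with 11 and 12 repeats differed by 0.58 in *LYS1* and by 5.76 in *MET17*, whose part was not tested. Among the 8 genes, no wild type array stood apart from the other 7 by Dixon's criterion.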

How the results depend on the processing

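Without the dye term, which is the fit with no replicate block, 1 of the 7 genes other than *LYS2* passed in *rpb1-CTD11 cdk8Δ* against wild type 330 rpm and against *rpb1-CTD11*, 1 in *rpb1-CTD12 cdk8Δ* against *rpb1-CTD12*, and 0 in the test of whether the responses to loss of *CDK8* differ. Median centring gave 1 in *rpb1-CTD11 cdk8Δ* against wild type 330 rpm and 0 in that test. Print-tip loess and the deposited log2 ratios each gave 2 in *rpb1-CTD20*. With only the groups compared in the fit, 2 passed in *rpb1-CTD20*, 1 in *rpb1-CTD11 cdk8Δ* against *rpb1-CTD11*, 0 between 11 and 12 repeats and 0 in the test of the responses.

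With the spiked-in shift, 2 passed with 12 repeats and 0 with 13 and with 20, 1 in each double mutant against wild type 330 rpm and against its own truncation, 0 between 11 and 12 repeats and 0 in the test of the responses. The same shift reversed values with 13 repeats, where *LYS20* had -0.051, *LYS9* -0.089, *LYS1* -0.084, *ACO1* -0.38, *ARO8* -0.39, *LYS5* -0.37, *GAP1* -0.41, *ODC2* -0.40 and *URA3* -0.40, beside a median of all probes of -0.42. With the other wild type as the control, *MET17* in *rpb1-CTD12 cdk8Δ* changed from 0.00 to -0.39. The causes were not tested.

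Leaving out 1 array at a time gave 1 to 3 of the 7 genes with 13 repeats (1 without its b array), 0 to 2 with 20 (0 without its b array, 2 without the third array of wild type k1), 1 to 2 in *rpb1-CTD11 cdk8Δ* against wild type 330 rpm (1 without its b array or either control array), 1 to 3 in *rpb1-CTD12 cdk8Δ* against *rpb1-CTD12* (1 without the a array of *rpb1-CTD12* or the b array of the double mutant), 1 to 2 between 11 and 12 repeats and 1 to 2 in the test of the responses (2 without the a array of *rpb1-CTD11*). Of 2032 values of the 8 genes over all comparisons and alternatives, 1947 kept direction and side of the threshold, 56 lost the call, 26 gained it and 3 reversed. Among the comparisons added later, the 1 call between 12 and 13 repeats became 2 with print-tip loess, 3 with the deposited log2 ratios and 4 with the spiked-in shift. The 1 call between 20 repeats and *RPB1-CTDWT* became 2 with the first pair of settings and 0 under 10 alternatives. Treating wild type arrays of 1 label as a random block (correlation 0.36) or leaving out dim probes (6213 kept, all 8 genes among them) moved no count of calls among the 7 genes by more than 1.5 times, except that the random block left 0 calls between 20 repeats and *RPB1-CTDWT* (*LYS9* at an adjusted p of 0.010). The searches for motifs in promoters were not run.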
